A study of Mus musculus with 8 samples.

Results

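Alveolar type I cells (AECI) were compared between embryonic mouse lungs in which Fgfr2b signalling had been inhibited and wild-type lungs. The 2 arrays labelled Mutant AECI were set against the 2 arrays labelled WT AECI, and every autosomal gene with a named spot entered, 23358 of the 24291 genes measured in the series. The embryonic interval in the labels runs from E16.5 to E18.5, and the cells had been isolated by FACS. The series also holds 2 Mutant AECII and 2 WT AECII arrays (type II cells, 8 arrays in all), which shared the estimate of the spread here. The labels describe the replicates of a group as biological. The sources used here state neither the means of inhibition nor the sorting markers, and do not say whether a sample came from 1 embryo or several, so p-values measure the spread between these samples only.

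Fgfr2b is the splice form of the fibroblast growth factor (FGF) receptor 2 that epithelia carry. Its ligands activate the RAS and ERK cascade, which induces transcription factors of the ETS family such as Etv4 and Etv5 together with feedback inhibitors such as the sprouty proteins and dual specificity phosphatases. In the embryonic lung the pathway acts on the distal epithelium, where progenitors give rise to flat AECI, the cells of gas exchange, and to cuboidal AECII, the cells that make surfactant.

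Values are log2 signals, so a difference of 1 is a 2-fold change. They ran up to 15.99 on every array, with a median of 5.01 over all spots, and signals near 3 to 4 could not be told from background because no detection limits were given. Replicates correlated with r = 0.969 in mutant AECI and 0.962 in WT AECI across autosomal genes, which are not independent replicates. AECI markers were high on all 4 AECI arrays: the water channel gene Aqp5 lay at 14.38 to 14.67, the membrane glycoprotein gene Pdpn at 13.83 to 14.18 and Hopx, a homeodomain protein, at 14.16 to 14.56. Surfactant genes were present beside them, with Sftpc at 15.16 to 15.49. Endothelial and leukocyte markers were low (2.56 to 7.53 for Pecam1, Cdh5, Kdr and Tek, and 2.99 to 7.95 for Ptprc, Laptm5, Tyrobp and Fcer1g), whereas the haemoglobin genes Hba-a1 and Hbb-b1 lay between 11.42 and 15.18. Of mesenchymal markers, Acta2 lay at 12.64 to 13.27, and the collagen gene Col1a1 read 6.38 and 10.26 on the mutant and 4.94 and 8.57 on the WT arrays, higher on both replicate 2 arrays, as Col3a1 was (4.49 to 9.45). Xist, the X-inactivation RNA, stood at 3.50 and 5.14 on the mutant AECI arrays and at 13.17 and 12.96 on the WT AECI arrays, and Eif2s3y of the Y chromosome at 10.94 and 10.46 on the mutant and 5.86 and 3.99 on the WT arrays. The AECII arrays were divided in the same way, with Xist at 4.42 and 4.28 in mutant and 12.70 and 12.44 in WT AECII. Sex, as read from these genes, and genotype cannot be told apart here, in autosomal genes either. Genes of X and Y are left out below, which does not lift this limit from the autosomal genes.

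WT AECI replicate 1 stood apart from the other 3 AECI arrays. On it 217 autosomal genes were more than 4-fold above the highest of the others, against 138 for mutant AECI replicate 1, 41 for mutant AECI replicate 2 and 81 for WT AECI replicate 2. Keratin genes of basal and stratified epithelium were among them. Krt14 read 5.90 and 3.49 on the mutant arrays but 12.32 on WT replicate 1 and 3.82 on WT replicate 2. Krt5 read 7.26 and 6.82 on the mutant arrays, 12.30 on WT replicate 1 and 4.77 on WT replicate 2. The basal marker Trp63 did not follow, at 13.84 to 14.13 on the AECI arrays with WT replicate 1 the lowest. It was as high on the AECII arrays, at 13.81 to 14.08, so its spot did not distinguish any of the arrays. The median of 35 basal and stratified epithelium markers was 4.98 and 5.14 on the mutant arrays, 8.17 on WT replicate 1 and 4.77 on WT replicate 2. Cell cycle genes were highest on this array too, and the counts of both lists are given with and without it. Mutant AECI replicate 1 was the array with most genes more than 4-fold below the lowest of the others, 72, against 7 for mutant AECI replicate 2, 31 for WT AECI replicate 1 and 15 for WT AECI replicate 2.

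**Figure D1:**
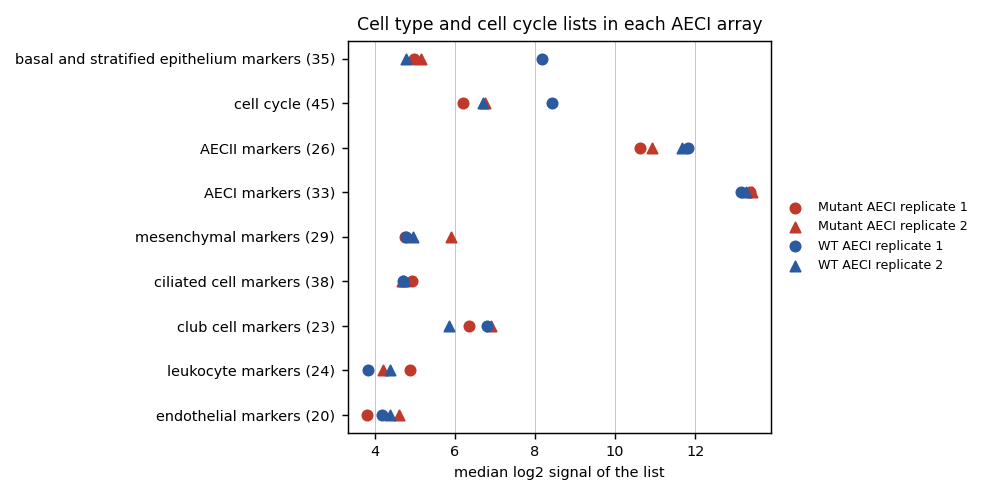
Median log2 signal of 9 lists of genes on each AECI array (red, mutant; blue, WT; circles, replicate 1; triangles, replicate 2; number of measured members in brackets). WT replicate 1 lies apart for basal and stratified markers (8.17) and cell cycle genes (8.43), while both mutant arrays lie below both WT arrays for AECII markers.

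The list with the highest share of genes apart between the groups, among the 46 examined, was that of AECII markers. Of 26 measured AECII markers, 22 (84.6%) were lower on both mutant AECI arrays than on both WT AECI arrays, 1 (3.85%) was higher and 3 overlapped. Among all autosomal genes, 17.7% were lower and 17.6% higher without overlap. The median log2 fold change of the list was -0.78, against -0.00 over all autosomal genes. The median signal of the list was 10.61 and 10.91 on the mutant arrays and 11.83 and 11.68 on the WT arrays. No marker passed limma's test after Benjamini-Hochberg adjustment over all genes. At an unadjusted limma p under 0.05, 14 markers were lower and 0 higher, against 4.54% and 3.01% of autosomal genes. In bulk RNA, fewer type II cells in the sort and less RNA of these genes per cell cannot be told apart.

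Among the surfactant proteins, Sftpb read 9.08 and 9.29 in mutant AECI, against 11.17 and 10.35 in WT AECI. The log2 fold change was -1.58 ± 0.37 (SE, n = 2 arrays per group; limma adjusted p = 0.42). A second spot of Sftpb differed by -0.73, again without overlap. Sftpa1 read 10.49 and 11.01 in mutant AECI, against 11.91 and 11.77 in WT AECI (-1.09 ± 0.28, limma adjusted p = 0.459). Sftpc differed by only -0.28 at signals of 15.16 and 15.23 in mutant and 15.47 and 15.49 in WT AECI, close to the top of the scale. On the AECII arrays Sftpc read 15.89 to 15.93. Sftpd, a collectin of innate defence, overlapped between the groups, at 11.70 and 12.36 in mutant and 11.95 and 11.75 in WT AECI. Of these 4 genes, 3 had no overlap between the groups.

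The promoters of Sftpb and Sftpa1 are shown because these genes had the largest differences among surfactant proteins and are classical targets of the lung homeodomain factor NKX2-1, whose own gene overlapped (Nkx2-1 at 13.60 and 13.73 in mutant and 13.63 and 13.59 in WT AECI). Each sequence is the 250 bases before the RefSeq start on the plus strand of GRCm38.p6, chr6:72304360-72304609 for Sftpb and chr14:41131538-41131787 for Sftpa1. Capitals mark CTCAAG, a core of NKX2-1 sites, which was searched on both strands.
Sftpb: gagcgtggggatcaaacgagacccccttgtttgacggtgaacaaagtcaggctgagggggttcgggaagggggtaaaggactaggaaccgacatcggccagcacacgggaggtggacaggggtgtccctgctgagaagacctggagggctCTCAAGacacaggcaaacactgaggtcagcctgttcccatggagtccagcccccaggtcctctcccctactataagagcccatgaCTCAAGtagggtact
Sftpa1: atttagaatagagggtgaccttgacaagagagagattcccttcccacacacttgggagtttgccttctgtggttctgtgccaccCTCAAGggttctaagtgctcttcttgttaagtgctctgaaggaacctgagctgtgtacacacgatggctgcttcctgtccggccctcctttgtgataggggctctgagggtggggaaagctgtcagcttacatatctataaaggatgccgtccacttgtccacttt
Sftpb held 2 matches, 100 and 15 bases before the start, and Sftpa1 held 1, 166 bases before it. These 2 were the only matches among the 20 AECII markers with a promoter in the RefSeq table, 5 of 28 AECI markers held one, and 15.2% of all 27025 genes in the table held the motif.

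Secreted defence proteins of type II cells were on the same side. Lyz2, a lysozyme, read 11.39 and 11.43 in mutant AECI, against 12.74 and 12.68 in WT AECI (-1.30 ± 0.23, limma adjusted p = 0.311), and its second spot differed by -1.02. Lyz1 is a near-identical copy that the probes may share. Cxcl15, a lung chemokine, read 11.48 and 12.11 in mutant and 13.20 and 12.89 in WT AECI (-1.25 ± 0.30, limma adjusted p = 0.428). Chil1, a chitinase-like protein, read 10.92 and 10.86 in mutant and 12.10 and 11.63 in WT AECI. Il33, an epithelial cytokine, had the largest difference of the list (-1.70 ± 0.40), at dim signals of 3.53 and 4.59 in mutant and 5.66 and 5.85 in WT AECI. The arrays did not overlap for any of these genes.

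Napsa, an aspartic protease that processes the surfactant protein B precursor, read 10.73 and 11.01 in mutant AECI, against 12.21 and 11.80 in WT AECI, and its 2 spots differed by -1.14 and -1.07. Cebpa, a transcription factor of lipid synthesis and type II maturation, read 11.47 and 12.21 in mutant and 13.34 and 12.50 in WT AECI. Lamp3, a lamellar body membrane protein, read 11.18 and 10.95 in mutant and 11.75 and 11.93 in WT AECI. The lipid synthesis enzymes on the AECII list had log2 fold changes of -0.88 for Scd1, -0.80 for Lpcat1 and -0.79 for Fasn, without overlap. Fatty acid and phospholipid synthesis genes as a list lay on both sides, with a median of -0.07. Of 30, 8 (26.7%) were lower and 7 (23.3%) higher without overlap, against 17.7% and 17.6% of all autosomal genes. The lipid transporter gene Abca3 differed by -0.46, with a dimmer spot that overlapped, and the phosphate transporter gene Slc34a2 by -0.60. The exception was Slc39a8, a zinc transporter, at 13.45 and 13.65 in mutant and 13.11 and 12.69 in WT AECI. Muc1, a membrane mucin, overlapped.

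AECI markers lay on the other side of 0, with smaller differences. Of 33 measured markers, 18 (54.5%) were higher without overlap on the mutant arrays and 0 lower, against 17.6% and 17.7% of all autosomal genes, and the median log2 fold change was 0.24. Hopx read 14.56 and 14.53 in mutant AECI, against 14.16 and 14.25 in WT AECI, and the basement membrane collagen gene Col4a4 read 13.13 and 13.18 in mutant and 12.57 and 12.80 in WT AECI. Pdpn and Aqp5 differed by 0.20 and 0.17, both without overlap, while a second spot of Aqp5 overlapped. Ager, which encodes a receptor at the basal membrane of these cells, read 15.37 and 15.49 in mutant and 15.50 and 15.37 in WT AECI. At an unadjusted limma p under 0.05, 2 markers were higher, Mal2 (0.66), a protein of apical transport, and Cyp2b10 (1.20), a cytochrome P450 at signals of only 3.86 and 5.21 in mutant and 3.35 and 3.30 in WT AECI. Without WT AECI replicate 1 the list median was 0.18, and 22 markers (66.7%) were higher and 3 (9.09%) lower than the remaining WT array, against 32.8% and 33.5% of all autosomal genes.

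**Figure D2:**
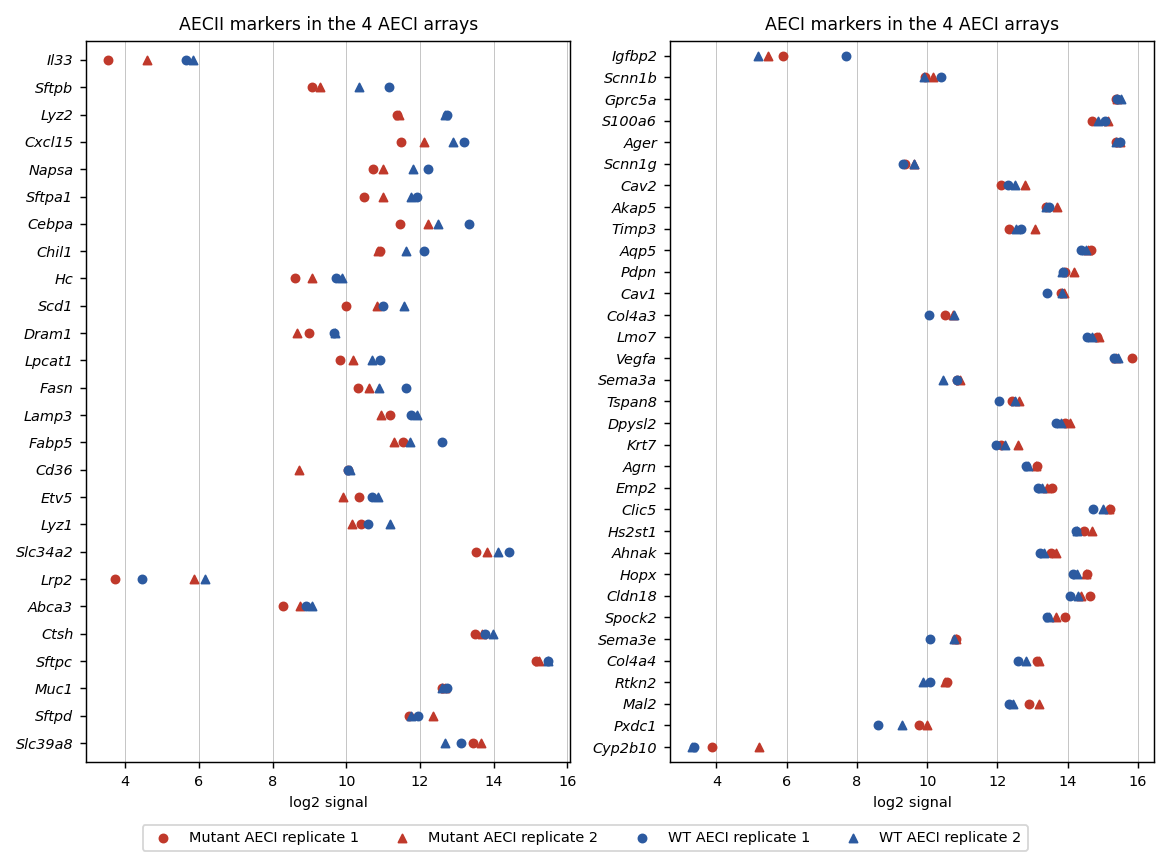
Log2 signal of each measured AECII marker (left) and AECI marker (right) on the mutant (red) and WT (blue) AECI arrays, circles for replicate 1 and triangles for replicate 2. Of 26 AECII markers 22 have both red points left of both blue points, and of 33 AECI markers 18 have both red points to the right.

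Lists of named markers cover few genes, so the same comparison was made over all bright autosomal genes (a group mean of at least 8) ordered by the mean of the 4 AECII arrays minus the mean of the 4 AECI arrays. Mutant and WT arrays count equally in this order, which uses the same AECI arrays as the comparison, and it is given as a description. Of 490 genes that were at least 2 log2 units higher in AECII, 179 (36.5%) were lower without overlap in mutant AECI and 42 (8.57%) higher, with a median log2 fold change of -0.46. Of 284 genes at least 2 units higher in AECI, 34 were lower and 116 (40.8%) higher, with a median of 0.24. The 7881 bright genes between these limits had a median of 0.03, with 17.5% lower and 21.3% higher. Between genes 2 to 3 units higher in AECI (median 0.27) and genes 3 to 4 units higher in AECII (median -0.58, 141 genes), each class had a lower median than the one before it. The end classes did not follow this order, with medians of 0.13 and 0.20 for genes 3 to 4 and over 4 units higher in AECI, and -0.57 for those at least 4 units higher in AECII. Leaving out WT AECI replicate 1 gave medians of -0.41 and 0.16 for AECII-high and AECI-high genes. In type II cells the AECII-high genes had a median mutant minus WT difference of -0.06 and the AECI-high genes one of 0.44.

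**Figure D3:**
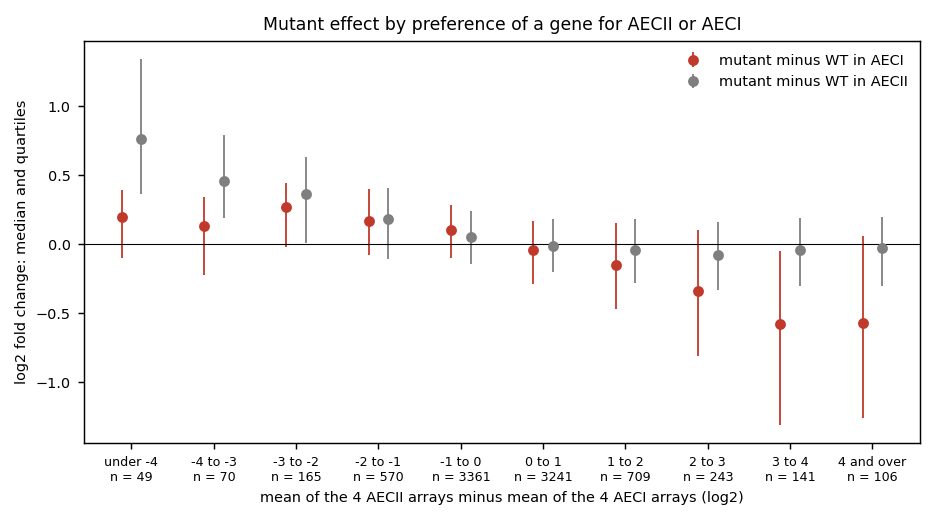
Median and quartiles of the log2 fold change between mutant and WT (vertical axis) in AECI (red) and in AECII (grey), for bright autosomal genes grouped by the mean of the AECII arrays minus the mean of the AECI arrays (horizontal axis, log2; n, number of genes). In AECI the medians lie at 0.13 to 0.27 for genes higher in AECI by at least 2 and at -0.34 to -0.58 for genes higher in AECII by at least 2.

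Markers of airway cells, whose list medians were higher in AECII than in AECI, were found on both sides. Of 38 ciliated cell markers, 7 (18.4%) were lower and 7 higher without overlap, shares near the 17.7% and 17.6% of all autosomal genes, and the median signal of the list was 4.93 and 4.68 in mutant and 4.71 and 4.73 in WT AECI. Of 23 club cell markers, 6 (26.1%) were lower and 4 (17.4%) higher, at list medians of 6.34 and 6.89 in mutant and 6.79 and 5.85 in WT AECI. Foxj1, the regulator of motile cilia, read 7.57 and 6.02 in mutant and 4.44 and 5.31 in WT AECI (1.92 ± 0.59, limma adjusted p = 0.522), and Ccdc39, an assembly factor of cilia, read 8.07 and 8.58 in mutant and 6.18 and 7.57 in WT AECI. Scgb1a1, the secretoglobin of club cells, overlapped at 7.67 and 9.62 in mutant and 9.54 and 8.89 in WT AECI.

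The FGF pathway itself was divided. Of 24 FGF targets, 9 (37.5%) were lower and 4 (16.7%) higher without overlap, against 17.7% and 17.6% of all autosomal genes. The median log2 fold change was -0.15, or -0.04 with each array centred on its median. Spred2, an inhibitor of RAS and RAF signalling, read 8.80 and 7.09 in mutant AECI, against 9.65 and 9.88 in WT AECI (-1.82 ± 0.52, limma adjusted p = 0.5), and of its dimmer spots one differed by -2.46 and the other overlapped. Ccnd1, cyclin D1, read 5.87 and 6.09 in mutant and 7.51 and 7.06 in WT AECI (-1.30 ± 0.27, limma adjusted p = 0.359). Dusp4, an ERK phosphatase, read 8.68 and 9.17 in mutant and 10.02 and 9.98 in WT AECI (-1.08 ± 0.27, limma adjusted p = 0.456), whereas its second, dim spot overlapped. These were the 3 members at an unadjusted limma p under 0.05.

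The ETS factor gene Etv5 read 10.36 and 9.92 in mutant AECI, against 10.70 and 10.85 in WT AECI, and Etv4 differed by -0.30. Sox9, a transcription factor of distal progenitors, read 8.87 and 9.33 in mutant and 10.01 and 9.52 in WT AECI, and Bmp4, a morphogen of the distal tip, read 11.08 and 11.14 in mutant and 11.52 and 11.95 in WT AECI. The feedback inhibitors were not uniform. Spry2 overlapped at 12.10 and 11.98 in mutant and 11.93 and 12.17 in WT AECI, Spry4 differed by -0.34 at signals under 4, and Dusp6 was higher without overlap by 0.27. Ier3, an immediate early gene, was higher by 0.45. Etv5, Dusp4 and Spred2 were more abundant on the AECII arrays, with 12.30 and 12.58 in mutant and 12.09 and 12.12 in WT AECII for Etv5.

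The receptor gene Fgfr2 read 10.31 and 10.17 in mutant AECI, against 10.68 and 10.38 in WT AECI (-0.29, 95% CI -0.90 to 0.31). The array does not tell its splice forms apart here, and whether a probe lies in a sequence shared with an inhibitor of the pathway is not given in the sources used here. Fgfr1 was dim and its spots disagreed: the brightest differed by -0.59 with overlap, and the next 2 by 2.33 and 1.40 without overlap. Fgfbp1, a carrier of FGF ligands, was higher by 0.69, at 10.28 and 10.48 in mutant and 9.73 and 9.66 in WT AECI. Of 23 FGF ligands and receptors, 5 (21.7%) were higher and 2 (8.7%) lower without overlap, against 17.6% and 17.7% of all autosomal genes.

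Imprinted genes, which are expressed from 1 parental allele and include many regulators of fetal growth, were mostly lower. Of 25 measured, 13 (52.0%) were lower and 3 higher without overlap, against 17.7% and 17.6% of all autosomal genes, and the median log2 fold change was -0.41, or -0.15 without mutant AECI replicate 1. Dlk1, Rtl1, Meg3, Rian and Mirg, which form a cluster on chromosome 12, were all on this side. Dlk1, a transmembrane protein of the Notch ligand family, read 12.92 and 13.25 in mutant AECI, against 14.67 and 14.30 in WT AECI (-1.39 ± 0.27, limma adjusted p = 0.335), and its second spot differed by -1.71. The non-coding RNAs Mirg and Rian differed by -1.74 ± 0.27 and -1.65 ± 0.29, and Meg3 by -0.52 with 13.13 and 12.94 in mutant and 13.53 and 13.59 in WT AECI. Rtl1, the retrotransposon-derived gene between them, was dim and differed by -1.01. On the AECII arrays Dlk1 read 15.76 to 15.88, above every AECI array. Mirg (11.39 to 12.07) and Rian (10.90 to 11.91) were above mutant AECI there but overlapped WT AECI. For Dlk1 too, fewer type II cells in the sort and less RNA per cell cannot be told apart. Mirg and Rian were also lower without overlap in mutant than in WT AECII, by -0.55 and -0.76. The cause of their differences was not tested.

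The other large imprinted pair was less even between replicates. H19, a non-coding RNA, read 9.45 and 10.63 in mutant AECI, against 15.11 in WT replicate 1 and 12.37 in WT replicate 2 (-3.70 ± 0.90, limma adjusted p = 0.428). Its neighbour Igf2, a fetal growth factor, read 11.96 and 12.19 in mutant, 13.89 in WT replicate 1 and 12.34 in WT replicate 2. Peg3, a zinc finger protein, read 8.50 and 8.86 in mutant and 9.09 and 9.66 in WT AECI. On the higher side were Cdkn1c, a CDK inhibitor (0.36), and Impact, a regulator of translation (0.49). In H19 and Igf2, WT replicate 1 was far above WT replicate 2, whereas for Dlk1, Mirg and Rian the WT arrays lay close together.

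Of all autosomal genes, 1 gene passed limma's test at an adjusted p under 0.05 in mutant against WT AECI (0.00428% of those tested), and 0 were higher. The adjustment ran over all genes measured, X and Y included. With autosomal genes only in the fit, 0 passed. At an unadjusted limma p under 0.05, 1061 were lower and 704 higher, 60.1% and 39.9%. Centring each array on its median, which shifted all log2 fold changes by 0.11, turned this split to 765 lower and 1063 higher. The gene that passed was Mthfd2, a mitochondrial enzyme of folate metabolism that feeds one-carbon units into purine synthesis. It read 3.56 and 3.30 in mutant AECI, against 8.36 and 7.44 in WT AECI, and fell by 4.48 on the log2 scale (SE 0.38, limma adjusted p = 0.0483). In AECII it read 6.70 and 7.17 in mutant and 7.15 and 6.84 in WT cells. A second, dimmer spot of Mthfd2 overlapped between the groups, at 4.24 and 5.46 in mutant and 5.32 and 6.08 in WT AECI, and the mean of both spots gave -2.66 (limma adjusted p = 0.222). The call held in 5 of 17 alternatives and was lost when any array other than WT AECI replicate 2 was left out.

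Of 18 enzymes of serine and one-carbon metabolism, Mthfd2 among them, 7 (38.9%) were lower without overlap and 2 higher, against 17.7% and 17.6% of all autosomal genes. Phgdh, which starts serine synthesis, read 4.47 and 4.52 in mutant and 6.13 and 4.95 in WT AECI, and Mthfd1l, a further mitochondrial folate enzyme, differed by -1.39 at dim signals. Shmt2, which splits serine in mitochondria, read 10.39 and 10.72 in mutant and 11.44 and 10.98 in WT AECI. Cth, an enzyme of cysteine synthesis, was higher, at 5.66 and 5.41 in mutant and 4.69 and 4.53 in WT AECI. For Phgdh and Mthfd1l, WT replicate 2 lay much closer to the mutant arrays than WT replicate 1 did.

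The next genes by p in the lower direction included several that were far more abundant in AECII. Hdc, which makes histamine, read 6.09 and 5.97 in mutant AECI, against 8.60 and 9.23 in WT AECI (-2.88 ± 0.32, limma adjusted p = 0.15), and 12.07 to 13.16 in AECII. All 3 of its spots were lower without overlap. Serpinf1, a secreted serpin that inhibits blood vessel growth, read 8.90 and 8.47 in mutant and 11.42 and 11.07 in WT AECI (-2.56 ± 0.30, limma adjusted p = 0.15), again with 3 spots on the same side. Tbc1d4, a regulator of vesicle transport, read 4.10 and 3.93 in mutant and 6.43 and 6.79 in WT AECI, with a second spot lower without overlap and another that overlapped. Trmt61a, a tRNA methyltransferase, read 5.46 and 5.87 in mutant and 8.62 and 7.96 in WT AECI, and Ipo4, an importin, read 5.54 and 5.59 in mutant and 7.70 and 7.32 in WT AECI. Bdh1, Higd1c, Adamtsl3 and Tnip3 completed the 10, with signals in mutant AECI of 2.64 to 4.22.

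The 10 leading genes in the higher direction had varied known functions. Nxph3, a neurexophilin, read 8.31 and 7.90 in mutant AECI, against 5.35 and 5.04 in WT AECI (2.91 ± 0.31, limma adjusted p = 0.15). Rsad2, an interferon-induced antiviral protein, read 8.08 and 7.34 in mutant and 3.99 and 4.57 in WT AECI (3.43 ± 0.43, limma adjusted p = 0.182), but its second spot, dim on all arrays, overlapped. Pcca, a subunit of propionyl-CoA carboxylase, read 9.93 and 9.48 in mutant and 7.56 and 7.95 in WT AECI, and all 3 of its spots were higher without overlap. Kcnk6, a potassium channel, Rbks, ribokinase, and Fgf11, an intracellular member of the FGF family, were higher by 3.44, 1.76 and 1.87, and Tssk3, Zfp641, B3gat2 and Ahi1 by 1.41 to 2.98. Every further spot of Kcnk6, Fgf11, Tssk3, Zfp641, B3gat2, Ahi1, Adamtsl3 and Tnip3 overlapped between the groups. Of the 20 leading genes in both directions, 15 had more than 1 spot, and in 7 of these all spots had the same sign.

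**Figure D4:**
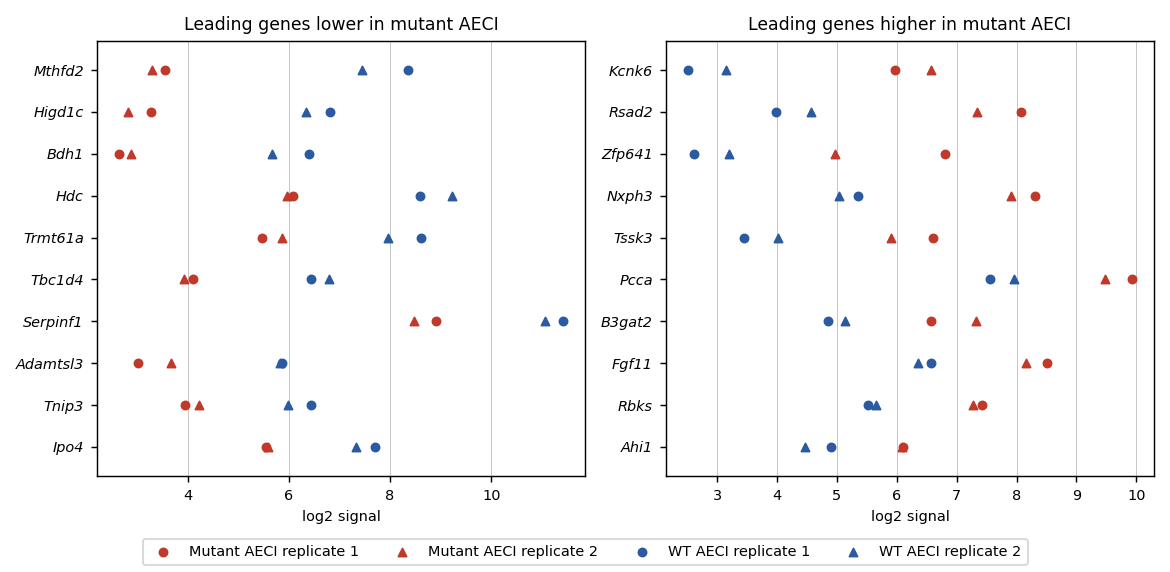
Log2 signal of the 10 leading genes in each direction on the mutant (red) and WT (blue) AECI arrays, circles for replicate 1 and triangles for replicate 2. In all 20 genes the groups do not overlap, which the rule that chose them required. Among them Mthfd2 alone passed the threshold adjusted over all genes, X and Y included.

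When limma's prior variance was allowed to depend on the signal (trended and robust), 17 autosomal genes passed, 14 lower and 3 higher. Serpinf1 and Hdc, both brighter on the AECII arrays, had limma adjusted p-values of 0.000965 and 0.00178, and the AECII marker Lyz2 0.00385. The AECII arrays also read 15.75 to 15.92 for Scgb1a1 of club cells, so a high signal there does not make a gene one of type II cells. The imprinted genes Dlk1, Mirg and Rian had 0.00442, 0.00726 and 0.0231, and Mthfd2 0.00385. Cxcl15 passed at 0.0437. Bcl2a1d, an apoptosis inhibitor with near-identical copies, Mgst2, a leukotriene and glutathione transferase, Gjb2, a connexin, Hmgn2, a nucleosome binding protein, Tbc1d4 and Trmt61a were also lower, and Pcca, Rsad2 and Nxph3 were higher, all at 0.0335. Gjb2 read 4.11 and 4.98 in mutant AECI, against 8.33 and 6.95 in WT AECI. In AECII, Gjb2 read 9.70 to 9.97 and Mgst2 9.15 to 10.41.

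Cell cycle genes had a negative median, with WT replicate 1 far above the other arrays. Of 45 measured, 11 (24.4%) were lower and 3 (6.67%) higher without overlap, against 17.7% and 17.6% of all autosomal genes, and the median log2 fold change was -0.76. The list median was 6.19 and 6.76 on the mutant arrays, 8.43 on WT replicate 1 and 6.70 on WT replicate 2, and without WT replicate 1 the median difference was -0.19. Without that array 14 (31.1%) were lower and 12 (26.7%) higher, near the 33.5% and 32.8% of all autosomal genes. Mki67, a proliferation marker, read 9.37 and 9.37 in mutant, 11.28 in WT replicate 1 and 9.78 in WT replicate 2. Cdc25a, a phosphatase that activates CDKs, read 6.93 and 7.79 in mutant and 9.45 and 8.66 in WT AECI. Basal and stratified markers followed the same array: of 35, 8 (22.9%) were lower and 3 (8.57%) higher, with a median of -0.34. Without WT replicate 1 the numbers were 12 lower and 12 higher (34.3% each), near the 33.5% and 32.8% of all autosomal genes, with a median of -0.01. Pkp1, a plakophilin of desmosomes, read 3.09 and 2.33 in mutant, 9.34 in WT replicate 1 and 4.61 in WT replicate 2.

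Among signalling genes, members of the hedgehog and retinoic acid lists were lower without overlap in 5 of 12 (41.7%) and 6 of 13 (46.2%) cases, and higher in 0 of either, against 17.7% lower and 17.6% higher among all autosomal genes. The hedgehog transducer Smo read 6.58 and 5.06 in mutant AECI, against 7.21 and 6.98 in WT AECI, whereas its second, dim spot was higher by 0.45 without overlap. The transcription factor Gli3 read 6.16 and 5.84 in mutant and 6.78 and 6.75 in WT AECI. Cyp26a1, which degrades retinoic acid, was dim, at 3.27 and 3.34 in mutant and 4.25 and 4.20 in WT AECI. Tgfbi, a matrix protein induced by TGF-beta, read 3.28 and 5.27 in mutant and 7.72 and 7.58 in WT AECI (-3.38 ± 0.70, limma adjusted p = 0.359). Bmp2 read 6.10 and 6.78 in mutant and 7.93 and 7.36 in WT AECI. Cebpd, a transcription factor induced by glucocorticoids, was higher, at 10.77 and 10.74 in mutant and 9.87 and 9.91 in WT AECI (0.87 ± 0.24, limma adjusted p = 0.474).

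Lysosomal and lamellar body genes were lower without overlap in 12 of 27 cases (44.4%) and higher in 5, against 17.7% and 17.6% of all autosomal genes. Atp6v1c2, a subunit of the proton pump, read 6.89 and 6.95 in mutant AECI, against 8.31 and 8.37 in WT AECI, while Neu1, a sialidase, was higher, at 7.87 and 8.34 in mutant and 7.01 and 6.84 in WT AECI. Slc26a9, an anion channel, read 7.12 and 7.54 in mutant and 8.63 and 8.70 in WT AECI. Atp6v1c2 and Slc26a9 were brighter in AECII, at 11.26 to 11.92 and 11.68 to 11.79, as was Neu1 at 8.59 to 9.27. The share of type II cells in the sort and RNA per cell cannot be told apart for them. Cd74, the invariant chain of MHC class II, read 6.01 on both mutant arrays and 7.48 and 7.83 on the WT arrays (-1.65 ± 0.27, limma adjusted p = 0.286). The class II gene H2-Ab1 read 3.87 and 4.02 in mutant AECI, 9.01 in WT replicate 1 and 5.51 in WT replicate 2. Of the 16 MHC genes, 3 (18.8%) were lower and 4 higher, shares near those of all genes.

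**Figure D5:**
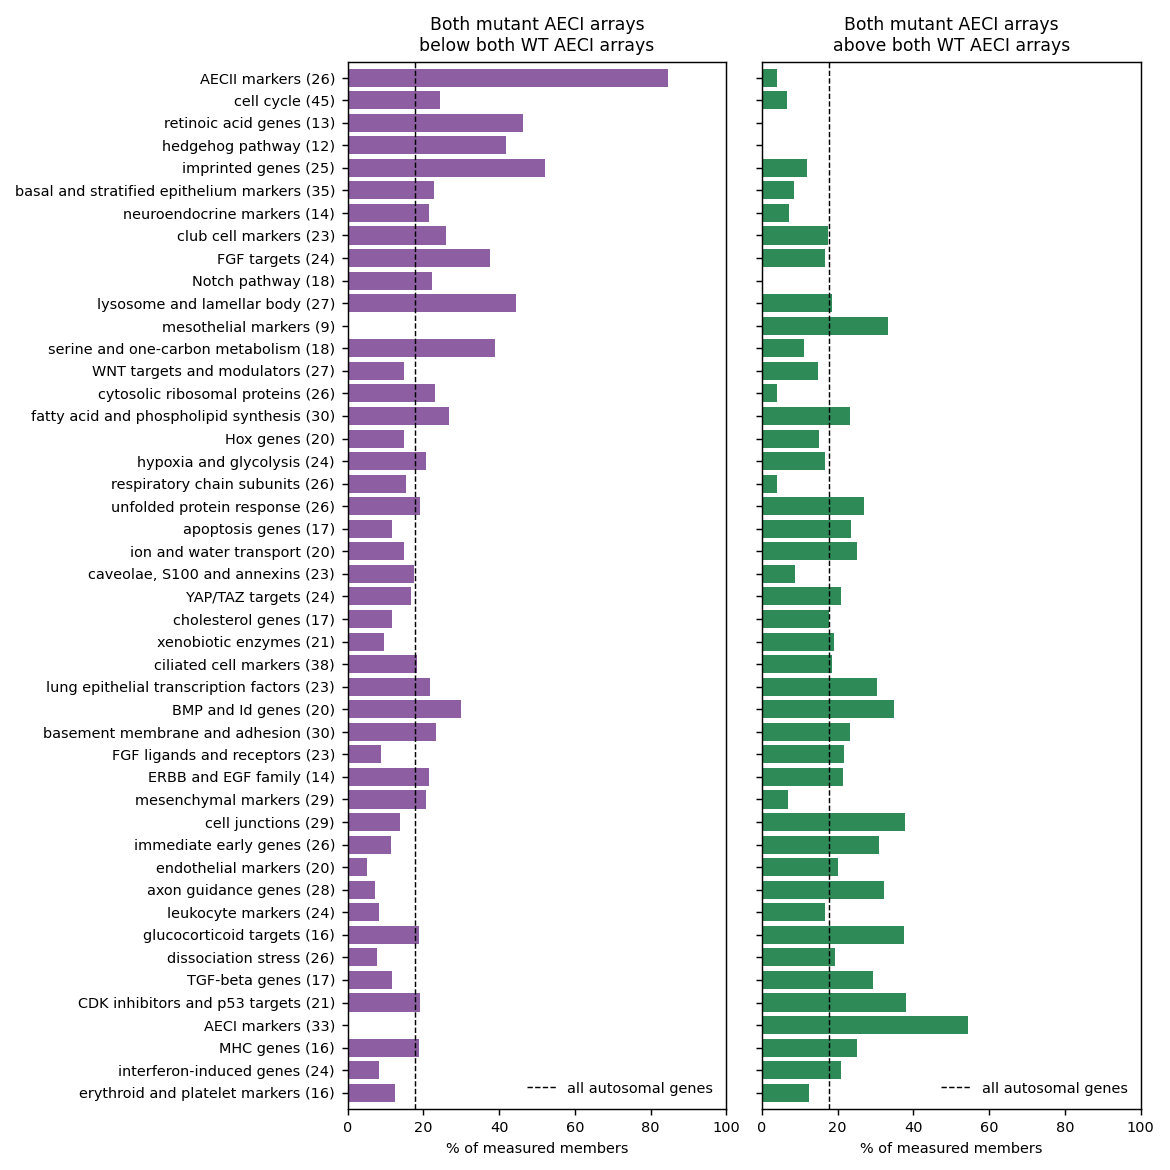
Share of the measured members of each of 46 lists (number in brackets, ordered by median log2 fold change) with both mutant AECI arrays below (left) or above (right) both WT AECI arrays. Dashed lines mark all autosomal genes (17.7% and 17.6%); AECII markers reach 84.6% on the left and AECI markers 54.5% on the right.

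The mutant effect in AECI was also set against that in AECII in the same fit. The AECII markers had a median of -0.78 in AECI and 0.03 in AECII, the AECI markers 0.24 and 0.63, and the imprinted genes -0.41 and 0.08. In AECII 4 of the 25 imprinted genes were lower without overlap, Mirg and Rian among them, and 5 higher. Cd74 (-1.14), Tgfbi (-2.33), Bmp4 (-0.92) and Cebpd (0.94) also kept their side in AECII without overlap. Others, such as Sesn1 (0.78) and Bmp2 (0.45), changed sides and are given below. No autosomal gene passed limma's test of the difference (0 of 23358; 4.69% at an unadjusted p under 0.05). For Mthfd2, whose difference of effects had the unadjusted p of 8.2e-05, the log2 fold change was -0.06 in AECII.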

How the data were processed

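The deposited values were log2 signals of 62976 spots on 8 single-colour arrays (Cy5, after whole-transcriptome amplification, per the labels). They were already normalised by the authors, since all arrays had the same quantiles; the submitters' notes name limma, and the sources used here state no background correction, detection limit or slide. Of these spots, 43941 had 1 gene symbol, 0 several and 19035 none, and 57 named spots with a missing value were left out. Symbols and chromosomes were updated through RefSeq (GRCm38.p6), by accession for 33708 spots, by symbol for 9763, by synonym for 463, and not for 7. Each gene was represented by its brightest spot (mean of all 8 arrays). Means of the 4 groups were fitted to all arrays with lmFit and eBayes (limma 3.58.1, R 4.3.3; two-sided; 4 residual and 2.87 prior degrees of freedom; median residual SD 0.391), with Benjamini-Hochberg adjustment over all 24291 genes. With 2 arrays against 2, an exact permutation test could not go below 1 in 3, so limma's pooled spread was used. The number of arrays limits the precision. Positive log2 fold changes are mutant minus WT.

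The named genes were, per direction, the 10 with the largest change among those past the threshold, filled up by smallest p (groups without overlap, higher mean at or above 5.74, no provisional symbol), up to 3 members of each of 46 lists by p, and a set of FGF and lung markers; others were chosen after their values were seen. Members and lists were chosen with earlier results of these data known. Bright genes (8 and over) and the difference of 2 between cell types were set after seeing the data. The limma step was tested on simulated data. Alternatives were median centring, quantile normalisation, the mean of spots, leaving out the dimmest 25% or 50% of genes, a trended and robust prior, autosomal genes only, the replicate number as a block, the 4 AECI arrays only, an adjusted p under 0.1 and leaving out each array. Tables and plots used pandas 2.3.3 and matplotlib 3.10.9 under Python 3.11.15.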

Additional observations from a re-analysis of the deposited data

Results flagged for a closer look

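For 14 of the genes named, both mutant arrays lay on one side of both WT arrays in AECI and on the other side in AECII. This held for 1020 of all 23358 autosomal genes. Of these 23358, 17.7% were lower and 17.6% higher without overlap in AECI, and 18.3% and 17.5% in AECII. Many of the named genes were chosen for a small p or for lack of overlap in AECI. The test of the difference passed for none of the 14 after adjustment (limma adjusted p = 0.999 for each). The difference of the 2 effects was 4.92 for Kcnk6, 3.49 for Cldn23 and 2.39 for Rbks, which were higher in mutant AECI and lower in mutant AECII. It was -1.82 for Sesn1, a stress-induced sestrin, -1.66 for Bmp2, -1.48 for Hmgn2, -1.44 for Bcl2 and -1.35 for Gli3, which were lower in mutant AECI and higher in mutant AECII. It was -1.14 for Chil1, -1.10 for Scd1, -1.03 for Peg3, -0.97 for Etv5, -0.60 for Abca3 and -0.31 for Sftpc, in the same direction. Their causes were not tested.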

How the results depend on the processing

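Of 116 named genes, 109 kept the sign of their log2 fold change under every alternative. The sign turned for Fgfr1 when its spots were averaged (0.77) and for 3 genes with an array left out: Sftpd (-0.16 without mutant AECI replicate 2, up to 0.51), and, without WT AECI replicate 1, Krt14 (range -7.62 to 0.88) and Krt5 (-5.25 to 2.27). Near 0 it turned for Muc1, Ager and Spry2 with median centring (0.08, 0.10 and 0.09), for Ager with the mean of spots (0.10), and with arrays left out for Muc1 (-0.09 to 0.04), Ager (-0.07 to 0.06) and Spry2 (-0.13 to 0.10). The Mthfd2 call held in 5 of 17 alternatives (log2 fold changes -4.94 to -2.66, limma adjusted p 0.00385 to 0.812).

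The count of autosomal genes lower in mutant AECI, 1 in the fit reported, was 0 without the lowest 25% of genes, with the mean of spots, with autosomal genes only, with the 4 AECI arrays only and with the replicate block, and 14 with the trended and robust prior, which also called 3 higher. Leaving out 1 array gave 0 to 14 lower and 0 to 2 higher; the 14 and 2 came without WT AECI replicate 2, which leaves replicate 1 as the only WT AECI array, and 0 lower and 2 higher without mutant AECI replicate 1. The difference between the effects in AECI and AECII gave 0 calls, or 0 to 1 with an array left out. Replicate differences over all autosomal genes were hardly correlated between groups (-0.066 to 0.03), which cannot exclude pairing in some genes. Col1a1 was higher on replicate 2 in both AECI groups but on replicate 1 in both AECII groups (9.29 and 7.05 in mutant, 9.28 and 6.15 in WT). The replicate block fitted a single shift for all groups, in which such opposite shifts cancel. With it 1646 autosomal genes had an unadjusted limma p under 0.05, against 1765 without it.

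The median of the AECII markers stayed between -0.85 and -0.67. That of the AECI markers was 0.35 with median centring and 0.18 to 0.33 with an array left out. That of the FGF targets was -0.04 with median centring, -0.17 with the mean of spots and -0.17 to -0.10 with an array left out. That of the imprinted genes was -0.63 to -0.15 and that of cell cycle genes -1.53 to -0.19 with an array left out. No detection limit bounds the differences of dim genes. Fits that left a group with a single array gave it the spread of the remaining groups.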

Other observations

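Enzymes of foreign compound metabolism differed in both directions. Cyp2s1, a cytochrome P450, read 8.38 and 9.91 in mutant AECI, against 6.71 and 6.56 in WT AECI (2.51 ± 0.56, limma adjusted p = 0.392), while a second, dim spot overlapped. Cyp4b1 read 9.52 and 9.98 in mutant and 8.17 and 8.58 in WT AECI, and Cyp1b1 4.18 and 4.73 in mutant and 2.65 and 3.23 in WT AECI. Gsta4, a glutathione transferase, was lower, at 8.07 and 7.88 in mutant and 9.50 and 9.04 in WT AECI. The list as a whole had 4 of 21 members higher and 2 lower without overlap, near the shares of all genes.

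Of 24 interferon-induced genes, 5 (20.8%) were higher and 2 (8.33%) lower without overlap, against 17.6% and 17.7% of all autosomal genes. The ubiquitin-like modifier gene Isg15 read 9.33 and 9.58 in mutant and 8.23 and 8.70 in WT AECI, and Ifi44 5.30 and 4.65 in mutant and 3.54 and 4.21 in WT AECI, with a second spot that overlapped. Among genes of cell death and stress, Bid, a pro-apoptotic protein, read 4.47 and 4.02 in mutant and 5.84 and 5.60 in WT AECI with a second spot that overlapped, and the sestrin gene Sesn2 read 9.30 and 9.90 in mutant and 10.57 and 10.38 in WT AECI. Lss, an enzyme of cholesterol synthesis, was higher, at 6.78 and 6.81 in mutant and 5.60 and 5.84 in WT AECI, but its other 2 spots overlapped (0.30 and -0.17). Of 17 cholesterol genes, 3 (17.6%) were higher and 2 (11.8%) lower without overlap, against 17.6% and 17.7% of all autosomal genes.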
